A study of Mus musculus with 15 samples.

Results

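Non-tumour colon of double mutant mice was compared with colon of mice that lack only Olfm4. The double mutant arrays are the 3 whose titles give the genotype APC+/-/Olfm4-/- with the letter N, labelled as adjacent normal tissue, and the Olfm4 mutant arrays are the 3 labelled APC+/+/Olfm4-/-. These are 6 of the 15 arrays of the study, all of colon from male mice aged 3 months on a C57BL/6 and 129 hybrid background, measured with Affymetrix Mouse430_2 arrays. Both groups lack Olfm4, so they differ by the heterozygous Apc mutation and by nearness to a tumour, and these cannot be told apart. The remaining arrays are 3 wild type (APC+/+/Olfm4+/+), 3 APC mutant with intact Olfm4 (APC+/-/OLFM4(+/+)) and 3 tumour arrays from the double mutants. The labels name neither the Apc allele nor the deleted part of Olfm4, and describe the mice as littermate cohorts matched by age and sex.

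Apc is the scaffold of the complex that marks beta-catenin for destruction. When both copies are lost, beta-catenin enters the nucleus with its TCF partners and turns on Wnt target genes, whereas tissue with an intact copy keeps the brake. Olfm4 is a secreted glycoprotein made in intestinal crypts and in neutrophils, and has been described as a restraint on Wnt and NF-kappaB signalling.

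Values are on the log2 scale of RMA, a method that summarises the probes of a gene into a level and gives all arrays a common distribution, so a difference of 1 is a doubling. Each gene is represented by its probe set of highest mean, and a gene is called when limma's adjusted p, corrected over 18193 genes by the Benjamini-Hochberg method, is under 0.05. The 6 arrays are not 6 animals in the titles. Adjacent replicates 2 and 3 carry the same animal number, and the number of Olfm4 mutant replicate 3 is made up of the last digits of both other Olfm4 mutant numbers. The p-values thus measure only the spread between arrays within groups, part of which can be technical. That spread is pooled over all 15 arrays in 5 groups and not taken from the 6 arrays alone. Of 11 colon epithelial markers 10 were measured, and all of these were well above the floor of the array in all 6 arrays, with Krt20 from 13.19 to 13.29 and Epcam from 13.71 to 13.76. The small intestinal enzyme Lct stayed between 6.23 and 6.57, near the medians of the arrays (6.35 to 6.47) and not at the floor. Sis and Defa24, also planned as small intestinal markers, were not measured. The list of 21 small intestine absorptive genes, which holds Fabp6, had a median difference of -0.06 (adjacent minus Olfm4 mutant). Lct alone is thus a weak check.

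Several arrays stood apart from their group before any gene was considered. Bacterial RNAs added before labelling carry the same sequence on every array, and the excess of their 3-prime over their 5-prime probe sets was 2.35, 3.31 and 2.44 in Olfm4 mutant replicates 1 to 3 and 3.97, 3.94 and 4.45 in adjacent replicates 1 to 3. All adjacent arrays lay above all Olfm4 mutant arrays, with means of 4.12 ± 0.28 and 2.70 ± 0.53 (SD, n = 3 each) and a difference of 1.42 (exact 2-sided permutation p = 0.1, the smallest that 3 arrays against 3 allow). Wild type arrays averaged 2.05 and tumour arrays 4.98. The same measure for the cell's own Gapdh, a glycolytic enzyme used as a control, was 0.75, 2.76 and 0.97 in the Olfm4 mutant and 3.95, 3.58 and 4.39 in the adjacent arrays. Olfm4 mutant replicate 2 thus lay between the groups on both measures.

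**Figure D1:**
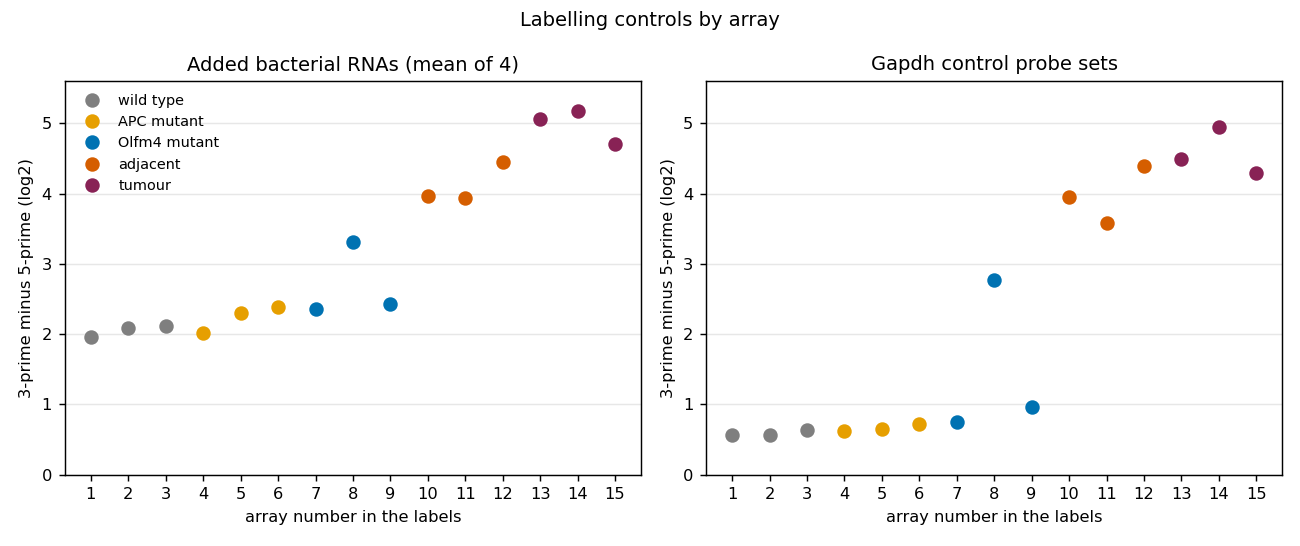
The excess of 3-prime over 5-prime probe sets (log2) is plotted for each of the 15 arrays against the array number in the labels, for the 4 added bacterial RNAs and for Gapdh, coloured by group. The 3 adjacent arrays (numbers 10 to 12) lie above the 3 Olfm4 mutant arrays (numbers 7 to 9), of which number 8 is at 3.31 and 2.76 against 2.35 and 0.75 for number 7.

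Distances between whole arrays placed Olfm4 mutant replicate 2 near both groups. The median absolute difference over all genes was 0.159 between Olfm4 mutant replicate 2 and adjacent replicate 2, smaller than the 0.210 between Olfm4 mutant replicates 2 and 1 or the 0.191 between replicates 2 and 3. Adjacent replicates 3 and 1 were farther from it, at 0.198 and 0.216. By the number of genes that differed at least 2-fold, replicate 2 was nearest to Olfm4 mutant replicate 3, with 312 genes against 569 to 730 for the adjacent arrays and 704 for Olfm4 mutant replicate 1. It was 0.158 between Olfm4 mutant replicates 1 and 3 and 0.154 between the adjacent arrays of the shared animal. Among 727 genes that differed at least 2-fold between the adjacent arrays and the mean of Olfm4 mutant replicates 1 and 3, replicate 2 was nearer to the adjacent mean for 409 (56.3%). Choosing genes by the other 5 arrays in itself draws a left-out Olfm4 mutant array towards the adjacent mean. No other array was left out in this way, so that share is a description without a reference. Olfm4 mutant replicate 3 in turn lay between the other members of its group. Among 704 genes that differed at least 2-fold between replicates 1 and 2, replicate 3 fell between them for 661 (93.9%), at a median distance of 0.232 from their linear mean. For the 14 other choices of an array in the 5 groups that share was 19.1% to 79.9% and the distance 0.376 to 1.05. The labels do not say that replicate 3 is a pool, and whether it is was not tested.

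The targeted genes gave no check of the genotypes. Olfm4 gave a signal at the floor throughout, between 2.97 and 3.32 over the 15 arrays, and in these 6 arrays it was 2.99, 3.07 and 3.28 in Olfm4 mutant and 3.17, 2.97 and 3.05 in adjacent tissue. The 4 probe sets of Apc disagreed. They stood at 0.31, 0.37, -0.71 and -0.32 (adjacent minus Olfm4 mutant), with adjusted p-values over all probe sets of 0.23, 0.16, 0.22 and 0.30, so none passed.

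Adjacent and Olfm4 mutant colon differed in 8 genes, 0.044% of 18193, of which 7 were higher in adjacent tissue (0.0385%) and 1 was lower (0.0055%). The higher genes were Hamp2, Lair1, Rinl, Notch4, Tmem229b, Rpap3 and Pate14, and the lower gene was Sdc4. At an unadjusted p under 0.05 there were 2960 genes, 1553 higher and 1407 lower. Groups of 3 arrays that did not overlap were found for 4576 genes (25.2%), 2531 with adjacent tissue higher (13.9%) and 2045 with it lower (11.2%). The median difference over all genes was 0.05. After cyclic loess normalization the calls were 5 higher and 2 lower. Adjacent replicates 2 and 3 share an animal number, and with animal as a random block 3 genes passed, Rinl, Lair1 and Hamp2, while the other 5 had an adjusted p of 0.11. With the arrays of that animal averaged 10 genes passed, of which 3 were among the 8 (Rinl, Lair1 and Sdc4), while Hamp2 had an adjusted p of 0.0503, Tmem229b 0.0605, Pate14 0.0639, Notch4 0.0766 and Rpap3 0.133. The rest of the 10 were Ifitm1, Otop1, Pnliprp1, Serpinb11, Slc30a2, Wif1 and Wnt10a, all higher in adjacent tissue.

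Rinl and Lair1, the most firmly called genes, moved in different ways. Rinl encodes a guanine nucleotide exchange factor for endosomal Rab proteins that is found mainly in blood cells, and Lair1 encodes an inhibitory collagen receptor of leukocytes. Their promoters, the 250 bases before the RefSeq transcription start (build GRCm38.p6), are shown 5′ to 3′ on the gene's strand because both genes lie on mouse chromosome 7 and share the letters GAGGAA, the core bound by the leukocyte factor PU.1. Rinl is at chr7:28788719-28788968 on the plus strand and Lair1 at chr7:4063205-4063454 on the minus strand, and capitals mark GAGGAA or its reverse complement TTCCTC.
Rinl: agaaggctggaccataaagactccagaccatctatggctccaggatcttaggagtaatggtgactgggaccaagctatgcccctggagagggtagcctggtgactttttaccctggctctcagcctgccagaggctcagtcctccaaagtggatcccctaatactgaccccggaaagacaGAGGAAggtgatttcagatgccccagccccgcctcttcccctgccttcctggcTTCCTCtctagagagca
Lair1: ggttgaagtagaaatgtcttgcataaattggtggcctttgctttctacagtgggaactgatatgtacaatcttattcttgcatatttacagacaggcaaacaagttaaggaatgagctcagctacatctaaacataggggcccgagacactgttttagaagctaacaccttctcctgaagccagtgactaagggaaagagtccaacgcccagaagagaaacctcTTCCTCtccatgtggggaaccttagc
The letters occur on either strand in 3 of the 8 called genes (Rinl, Lair1 and Pate14) and in 22.7% of the 14452 tested genes with a promoter in that table. A match is a description of the letters and not a binding site.

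Rinl read 6.495, 6.51 and 6.59 in the Olfm4 mutant arrays and 8.16, 8.52 and 8.51 in the adjacent arrays. It was 3.64-fold higher in adjacent tissue (log2 difference 1.86, SE 0.19, n = 3 per group, adjusted p = 0.00586). The Olfm4 mutant arrays were the low ones of the study, since the means of wild type, APC mutant and tumour arrays were 8.11, 8.30 and 8.38. The 2 other Rinl probe sets, both dim, stood at 0.22 and -0.06 and did not pass.

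Lair1 read 7.28, 7.89 and 7.51 in the Olfm4 mutant and 9.60, 9.89 and 9.54 in the adjacent arrays. It was 4.33-fold higher (2.12, SE 0.23, adjusted p = 0.00586), and here the adjacent arrays were high beside wild type (mean 7.59) and close to tumour (9.47). Its 2 other probe sets stood at 0.44 and -0.16 and did not pass.

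Hamp2, a paralogue of the iron hormone hepcidin, had the largest difference of the called genes. It read 8.62, 7.09 and 7.39 in the Olfm4 mutant and 11.10, 10.01 and 10.57 in the adjacent arrays, 7.26-fold higher (2.86, SE 0.38, adjusted p = 0.0268). The wild type mean, 9.60, lay between the groups. Its kept probe set is of the kind that can match several transcripts, and the hepcidin gene Hamp itself stood at -0.13 (adjusted p = 0.97) and is named after its values were seen, so the signal is uncertain between near-identical copies. A further Hamp2 probe set stood at 0.21. Rinl, Lair1 and Hamp2 are on chromosome 7, which holds 3 of the 8 called genes and 7.83% of the genes tested with a known chromosome.

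Notch4, a Notch receptor of blood vessels, was the called gene with a second probe set that passed. It read 8.04, 8.67 and 8.31 in the Olfm4 mutant and 9.71, 9.66 and 9.81 in the adjacent arrays, a difference of 1.39 (SE 0.21, adjusted p = 0.040). The second probe set differed by 1.09 (SE 0.18, adjusted p = 0.0432 over all probe sets) and the remaining one, near the floor, by 0.14. The tumour mean was 9.75 and the wild type mean 8.16. Of the 16 genes of the Notch list this receptor alone was called (0.044% of all genes). Without overlap 3 of the list were higher and 4 lower (13.9% and 11.2% of all genes). Notch1 (-0.68, adjusted p = 0.22) leaned the other way.

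Tmem229b, a membrane protein whose kept probe set can also match several transcripts, rose by 1.14 (SE 0.17, adjusted p = 0.040), from 8.30, 8.29 and 8.04 to 9.32, 9.10 and 9.62. Its other probe sets stood at 0.29 and 0.545 (adjusted p over all probe sets 0.37 and 0.18) and did not pass. Rpap3, a cochaperone that helps to assemble RNA polymerase II, rose by 1.10 (SE 0.17, adjusted p = 0.0496), from 6.64, 7.12 and 6.73 to 7.69, 8.01 and 8.11. Pate14 rose by 0.78 (SE 0.12, adjusted p = 0.040) near the floor of the array, from 3.18, 3.07 and 3.01 to 3.90, 4.01 and 3.69. For all of these the groups did not overlap, and for Tmem229b and Rpap3 the tumour means (10.77 and 8.77) were higher still.

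Sdc4, syndecan-4, a heparan sulfate proteoglycan of cell adhesion, was the called gene that was lower in adjacent tissue. It read 13.52, 13.32 and 13.45 in the Olfm4 mutant and 12.26, 12.74 and 12.26 in the adjacent arrays and fell by 1.01 (SE 0.15, adjusted p = 0.040). The wild type mean was 13.51 and the tumour mean 11.29. Its other probe set stood at -0.06 (adjusted p = 0.97). Olfm4 mutant replicate 2 was the nearest of its group to the adjacent arrays for Lair1, Notch4, Rpap3 and Sdc4, as on the labelling measure. For Hamp2, Pate14 and Tmem229b replicate 1 was the nearest, and for Rinl replicate 3. With the measure of the added bacterial RNAs (spike-in) as a covariate, differences were 1.92 for Rinl, 1.67 for Lair1, 3.79 for Hamp2 and 0.94 for Pate14. They were 0.59 for Notch4, 0.72 for Tmem229b, 0.57 for Rpap3 and -0.56 for Sdc4, and none of these passed. The part of labelling in the differences of the called genes was not tested.

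**Figure D2:**
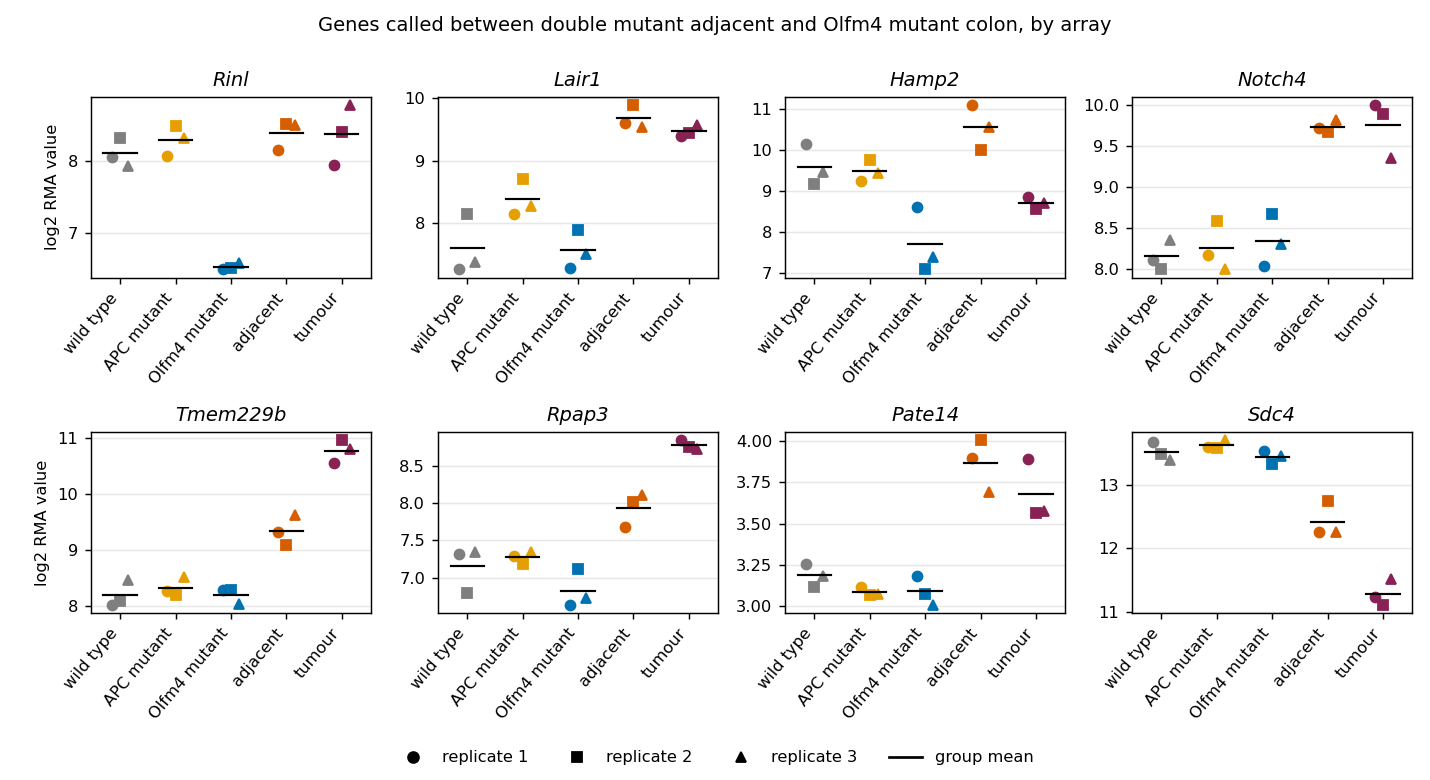
Log2 RMA values of the 8 called genes are plotted for every array in the 5 groups, with a symbol per replicate and a bar at the group mean, each panel on its own axis. Rinl is low in the Olfm4 mutant arrays (6.495 to 6.59), whereas Lair1, Notch4 and Pate14 are high in adjacent and tumour arrays and Sdc4 is low in both.

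Several of the largest differences did not pass, with adjacent arrays that spread widely, and they are named after their values were seen. Clca4b, a member of the calcium-activated chloride channel regulator family, read 8.68, 7.44 and 8.11 in the Olfm4 mutant and 9.60, 12.33 and 12.72 in the adjacent arrays (3.47, SE 0.70, adjusted p = 0.060). Pnliprp1, a lipase-related protein of the pancreas, read 7.07, 7.53 and 7.33 against 9.86, 8.67 and 12.33 (2.98, adjusted p = 0.072), and Pnliprp2 stood at 2.11. The 10 measured exocrine pancreas genes had a median of 0.17, with 3 higher and 0 lower without overlap (13.9% and 11.2% of all genes), and the median was 0.05 without adjacent replicate 1 or Olfm4 mutant replicate 3. Otop1, a proton channel, read 4.01, 3.86 and 3.75 against 6.61, 4.40 and 8.94 (2.77). In each of these the groups did not overlap. With the arrays of the shared animal averaged, Pnliprp1 (2.87, adjusted p = 0.0393) and Otop1 (2.77, adjusted p = 0.00728) passed.

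A further 18 genes lay just above the threshold, at adjusted p-values of 0.0505 to 0.0522, of which 10 were higher and 8 lower, and these are named after their values were seen. They include Aqp8, the water channel of surface colonocytes, Mgst3, a microsomal glutathione transferase (-1.62), and Cp, the copper oxidase ceruloplasmin (1.30). Myo1f, a myosin of leukocytes, stood at 1.23.

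Among the arrays left out in turn, Olfm4 mutant replicate 2 moved the number of calls most. Without it 774 genes were called (4.25%), 300 higher (1.65%) and 474 lower (2.61%). The group then holds replicates 1 and 3, which differed at least 2-fold in 110 genes and may not be separate animals. Genes for which replicate 2 sat with the adjacent arrays also differ more once it is removed. Calls without replicate 2, here and below, therefore describe its weight and are not added evidence for a gene. Leaving out adjacent replicate 1 gave 17 calls, adjacent replicate 2 gave 10, adjacent replicate 3 gave 3, Olfm4 mutant replicate 1 gave 5 and Olfm4 mutant replicate 3 gave 0. With the spike-in measure as a covariate no gene was called, 432 had an unadjusted p under 0.05, and 67.1% of the 2960 genes kept their sign, while the median standard error grew from 0.181 to 0.365. When the shared animal was averaged and Olfm4 mutant replicate 3 was left out, 0 genes were called, with 1278 at an unadjusted p under 0.05. Of the 8 genes, all passed without Olfm4 mutant replicate 2, 2 passed without adjacent replicate 3 (Rinl and Lair1) and 0 passed without Olfm4 mutant replicate 3, where Rinl had an adjusted p of 0.0529.

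**Figure D3:**
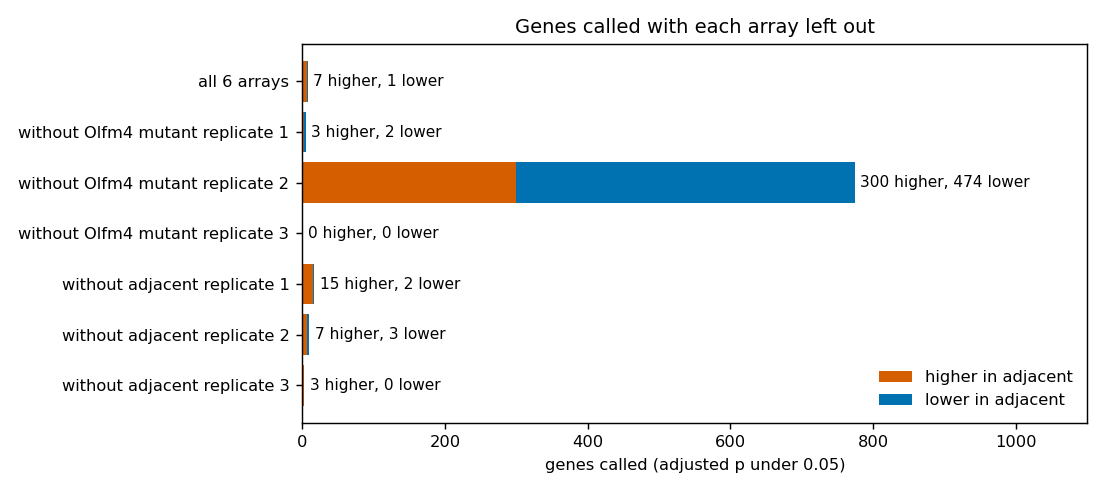
Bars show the genes called by limma (adjusted p under 0.05) with all 6 arrays and with each array left out in turn, split into genes higher and lower in adjacent tissue. The bar without Olfm4 mutant replicate 2 reaches 774 genes and the others do not pass 17.

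Among the genes that passed once that array was left out was Id1, a transcriptional inhibitor induced by BMP signals. It read 11.82, 9.62 and 11.66 in the Olfm4 mutant and 9.34, 9.26 and 8.78 in the adjacent arrays, so replicate 2 sat with the adjacent tissue. With all arrays Id1 stood at -1.91 (SE 0.44, adjusted p = 0.072), and without replicate 2 it was lower by -2.62 (adjusted p = 0.000205). With the spike-in covariate its difference was 0.39. Among genes named after their values were seen, Rabac1, a trafficking factor that binds Rab proteins, read 10.02, 7.21 and 9.94 against 6.54, 6.76 and 5.88. Atp5g2, a ring subunit of ATP synthase, read 12.99, 11.33 and 13.01 against 10.45, 10.90 and 10.46. Both have wild type means (11.61 and 13.39) above the Olfm4 mutant arrays and tumour means (5.98 and 9.86) below most adjacent arrays, the same order as the labelling measure, whose part in them was not tested.

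Tumour-type genes were present in adjacent tissue and mainly in replicate 3. To describe this, the 50 genes most raised in tumour over wild type arrays were taken. None of the 6 arrays chose them, but the tumour arrays carry the same animal numbers as the adjacent arrays. Both groups also lay above wild type on the labelling measure. Traits of these animals or of labelling can thus enter the choice. The counts of these genes without overlap are a description and not an independent test. Above the wild type mean these genes had medians of 0.87, 0.59 and 3.33 in adjacent replicates 1 to 3, against 0.11, 0.23 and 0.13 in the Olfm4 mutant arrays and 5.64 to 6.08 in the tumours. All 50 were highest of the adjacent arrays in replicate 3. As a share of the linear tumour level the median was 14.3% in replicate 3 and 2.2% in replicates 1 and 2. Over the 50 genes 27 did not overlap between the groups, all higher in adjacent tissue (13.9% of all genes), with a median difference of 1.41 that became 0.47 without replicate 3. The 50 genes lowest in tumours behaved otherwise, with medians of -1.23, -1.19 and -1.17 in the adjacent arrays and -0.37, -0.51 and -0.26 in the Olfm4 mutant arrays, and 30 of 50 did not overlap, all lower in adjacent tissue (11.2% of all genes). The part of labelling and of tumour cells within the pieces in these values was not tested.

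**Figure D4:**
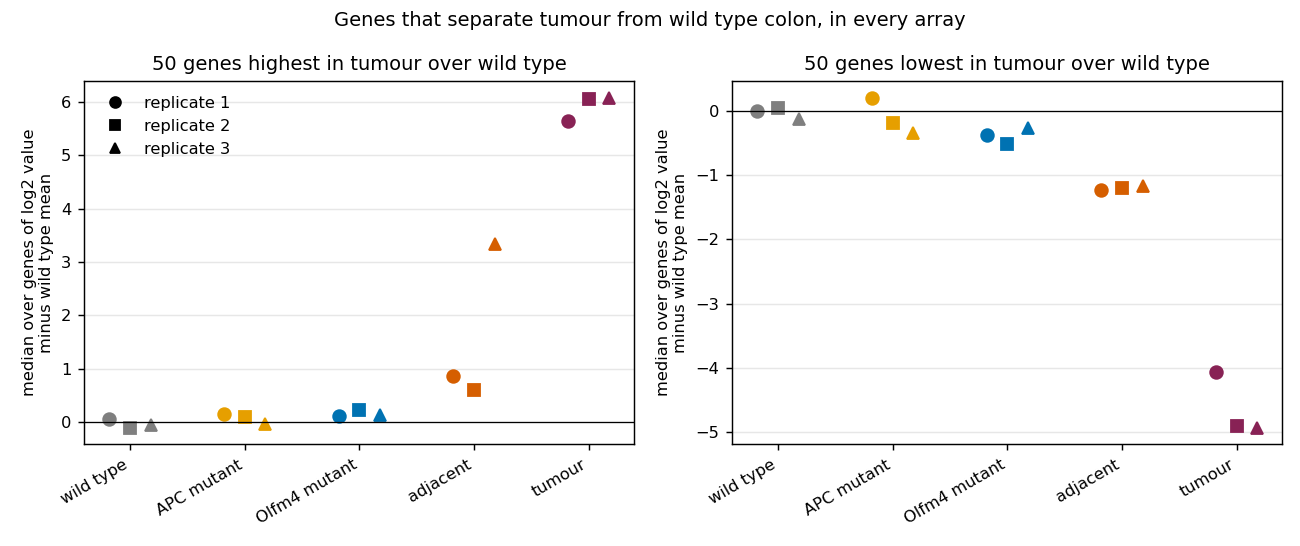
For each of the 15 arrays the median over 50 genes of the log2 value minus the wild type mean is plotted, for genes highest (left) and lowest (right) in tumour over wild type arrays, with a symbol per replicate. On the left adjacent replicate 3 stands at 3.33 and the other adjacent arrays at 0.87 and 0.59, and on the right the 3 adjacent arrays lie together between -1.23 and -1.17.

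Among Wnt target genes, 27 were measured of 29 listed, 0 were called (0.044% of all genes), and 6 were higher and 1 lower without overlap (13.9% and 11.2% of all genes). The median difference was 0.26, or 0.04 without adjacent replicate 3, 0.39 without adjacent replicate 1 and 0.004 with the spike-in covariate. Wif1, a secreted Wnt inhibitor that tumours with active beta-catenin express, read 4.44, 4.38 and 4.34 in the Olfm4 mutant and 6.15, 5.95 and 9.89 in the adjacent arrays. The groups did not overlap, and the difference of 2.94 (SE 0.73, adjusted p = 0.084) was set by replicate 3 through both its size and its spread. Without that array the difference was 1.66 and passed (adjusted p = 0.00157). With the arrays of the shared animal averaged it was 2.65 and passed (adjusted p = 0.0469). Mmp7, a protease of the same list, read 5.93, 6.17 and 6.07 against 7.19, 7.20 and 11.60 (2.61, adjusted p = 0.17). The feedback gene Axin2 leaned the other way, at 11.18, 10.84 and 11.21 against 10.35, 10.50 and 10.91 (-0.49, SE 0.17, adjusted p = 0.19), although its tumour mean was 12.56. Sox9, a crypt transcription factor, stood at -0.84 (adjusted p = 0.12), Lgr5 at 0.26 (0.62), Ascl2 at 0.04 (0.99), Myc at -0.30 (0.74) and Ccnd1 at 0.00. Beta-catenin itself, Ctnnb1, was 13.58, 13.66 and 13.52 against 13.65, 13.63 and 13.73, a difference of 0.08 (adjusted p = 0.68). Its probe sets disagreed, since the most variable one stood at -1.31 (adjusted p = 0.0347) and passed in the opposite direction, and the mean of its probe sets stood at -0.615 (adjusted p = 0.0524).

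The 18 stem and progenitor genes had a median difference of 0.04 and 0 calls, with 0 higher and 1 lower without overlap (13.9% and 11.2% of all genes). The 15 genes of the destruction complex and its TCF partners had a median of 0.03, with 4 higher and 1 lower. Replication and mitosis genes had a median of 0.18, with 3 of 28 higher and 1 lower, no larger a share than among all genes, and the median was 0.30 without Olfm4 mutant replicate 2 and -0.46 with the spike-in covariate. The proliferation marker Mki67 stood at 0.27 (adjusted p = 0.63).

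Absorptive colonocyte genes leaned lower in adjacent tissue. Of 23 measured, 0 were called, 10 were lower without overlap (against 11.2% of all genes) and 1 was higher, with a median of -0.26 that stayed at -0.25 without Olfm4 mutant replicate 2 and -0.26 without adjacent replicate 3. Aqp8 read 11.76, 11.14 and 11.61 against 9.87, 10.30 and 10.32, a difference of -1.34 (SE 0.22, adjusted p = 0.0505), and it passed without Olfm4 mutant replicate 2 (-1.52, adjusted p = 0.0051). Slc9a3, the sodium-proton exchanger of the brush border, had the largest difference of the list, at 12.46, 13.07 and 12.81 against 11.24, 9.55 and 12.12 (-1.81, adjusted p = 0.098), and Tmigd1, an adhesion molecule of mature enterocytes, stood at -1.73 (adjusted p = 0.30). The median was -0.17 without adjacent replicate 1. Car1 stood at -0.28 (adjusted p = 0.46) and the chloride exchanger Slc26a3 at -0.26 (0.72), both near the median of the list, and Krt20 stood at 0.01. Of 19 goblet cell genes 2 were higher and 0 lower without overlap (13.9% and 11.2% of all genes), the median was 0.04, and the mucin Muc2 stood at -0.26 (adjusted p = 0.82). Of 18 enteroendocrine genes 3 were higher and 1 lower, with a median of -0.07 and the granule protein Chga at 0.35 (adjusted p = 0.68). Since these are whole pieces of colon, fewer cells of a type and less RNA per cell cannot be told apart. Of 15 proximal colon genes, some shared with other lists, 4 were lower and 1 higher, with a median of -0.12. Their summed level ran from 68440 to 85550 in the Olfm4 mutant and from 59896 to 66427 in the adjacent arrays. Of 13 distal colon genes 3 were higher and 1 lower, with a median of 0.06 and summed levels that overlapped. The part of position along the colon was not tested.

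Some epithelial genes varied more within a group than between groups. Ang4, an antimicrobial ribonuclease of goblet and Paneth cells, read 6.70, 14.0045 and 13.67 in the Olfm4 mutant and 11.75, 6.28 and 12.09 in the adjacent arrays. The 2 low arrays were in different groups, and adjacent replicates 2 and 3, which carry the same animal number, were 6.28 and 12.09. Ugt2b5, a glucuronosyltransferase, read 5.05, 9.12 and 7.32 against 4.27, 4.80 and 5.63 (-2.26, adjusted p = 0.35).

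Antimicrobial and Paneth cell genes had a median of 0.73 over 18 measured, with 4 higher and 0 lower without overlap (13.9% and 11.2% of all genes, which holds for the counts that follow) and 0 called, and the median was 0.20 without adjacent replicate 3. Reg3b, a secreted bactericidal lectin, read 4.99, 5.40 and 5.42 against 6.11, 8.86 and 10.80, a difference of 3.32 (SE 1.12, adjusted p = 0.17). The 12 protease and matrix remodelling genes had a median of 0.48 (0.06 without replicate 3), with 4 higher, the 15 neutrophil genes 0.39 (0.14) with 3 higher and 1 lower, and the 12 mast cell genes 0.35 (0.09) with 2 higher. S100a8, a subunit of calprotectin, read 8.75, 6.80 and 8.11 against 8.18, 9.66 and 12.53 and overlapped (2.24, adjusted p = 0.25). Mcpt2, a mast cell protease, read 6.71, 7.63 and 7.52 against 9.67, 8.95 and 11.32 (2.70, adjusted p = 0.13). The 28 NF-kappaB and cytokine genes had a median of 0.23 with 8 higher and 1 lower, led by the chemokine Cxcl2 (2.01, adjusted p = 0.17), which was 8.30 in adjacent replicate 3 and at most 4.78 in the other 5 arrays. The medians of all 5 of these lists were smaller without adjacent replicate 3 (0.11 for the NF-kappaB list). The protease median was also 0.23 without Olfm4 mutant replicate 2 and 0.86 without adjacent replicate 1, and the mast cell median 0.58 without adjacent replicate 1 and -0.32 with the spike-in covariate.

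The B cell list did not follow that pattern. Its median difference was 0.89 over 14 measured, the highest of the 45 lists, with 7 higher and 0 lower without overlap (13.9% and 11.2% of all genes) and 0 called, and it was 1.10 without adjacent replicate 3 and 0.72 without Olfm4 mutant replicate 2. In APC mutant over wild type colon the list had a median of 0.60. The wild type arrays themselves varied widely, with median levels of the list of 7.10, 6.25 and 8.88, against 8.81, 9.08 and 8.49 in the adjacent arrays. Cr2, the complement receptor of mature B cells, read 6.89, 6.07 and 6.78 against 8.27, 8.01 and 7.58 (1.38, SE 0.48, adjusted p = 0.18). Ms4a1, which encodes CD20, read 8.62, 7.80 and 8.21 against 10.22, 10.10 and 9.41 (1.70, adjusted p = 0.43), and Cd79a of the B cell receptor stood at 0.45 (adjusted p = 0.64). The summed linear level of the list ran from 3551 to 5814 in the Olfm4 mutant and from 5836 to 9904 in the adjacent arrays. Of 9 MHC class II genes, which B cells and dendritic cells use to present antigen, 7 were higher and 0 lower without overlap, with a median of 0.55 that became 0.29 without Olfm4 mutant replicate 2. Of 19 T cell genes 7 were higher and 1 lower, with a median of 0.37 that became 0.18 without Olfm4 mutant replicate 2, and the costimulator Icos read 7.76, 7.25 and 7.67 against 8.84, 8.93 and 8.73 (1.27, adjusted p = 0.075). Macrophage genes had a median of 0.17, with 6 of 18 higher and 1 lower, and the median was 0.08 without Olfm4 mutant replicate 2 and 0.09 without adjacent replicate 1. C1qa, of the complement component C1q, stood at -1.46 (adjusted p = 0.16). The called Lair1 is a gene of these immune cells, and their part in its difference was not tested.

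Interferon response genes had a median of 0.54 over 21, with 3 higher and 0 lower without overlap, close to the 13.9% of all genes that were higher. The median was 0.78 without Olfm4 mutant replicate 2, 0.29 without adjacent replicate 3 and 0.91 without adjacent replicate 1, and it turned to -0.24 with the spike-in covariate. Gbp3, an interferon-induced GTPase, read 9.08, 9.80 and 8.97 against 10.20, 10.57 and 10.47 (1.12, adjusted p = 0.30). In APC mutant over wild type colon the same list had a median of -0.67, and its median level in the wild type arrays ran from 8.80 to 11.38.

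The lists of the tissue around the epithelium differed in direction. Adipocyte genes had the lowest median of the 45 lists, -0.67 over 9, with 5 lower and 0 higher without overlap (11.2% and 13.9% of all genes). The median level of the adipocyte list ran from 6.56 to 10.31 within the wild type arrays. Adipoq, the fat hormone adiponectin, read 8.25, 9.18 and 8.90 against 6.77, 6.89 and 4.48 (-2.73, SE 1.36, adjusted p = 0.34). Smooth muscle genes had a median of -0.18, with 6 of 18 lower and 0 higher without overlap, and the median was -0.02 with the spike-in covariate. Desmin (Des) read 12.65, 12.43 and 12.88 against 11.96, 11.97 and 11.49 (-0.85, adjusted p = 0.39), and the summed level of the list ran from 108387 to 115355 in the Olfm4 mutant and from 81104 to 106411 in the adjacent arrays. Of 20 enteric neuron and glia genes 5 were lower and 1 higher, with a median of 0.00 and the neuropeptide Vip at 0.25 (adjusted p = 0.94). The mesothelium list had a median of -0.24 over 6. Fibroblast and matrix genes had a median of 0.12, with 4 of 19 higher and 0 lower, which was 0.24 without adjacent replicate 3 and 0.04 without adjacent replicate 1. The 5 genes of the interstitial cells of Cajal had a median of 0.06, with 1 higher and 0 lower. Endothelial genes had a median of -0.16, with 2 of 14 higher and 1 lower, which was -0.05 without adjacent replicate 3 and -0.27 without adjacent replicate 1. No gene of these 7 lists was called.

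**Figure D5:**
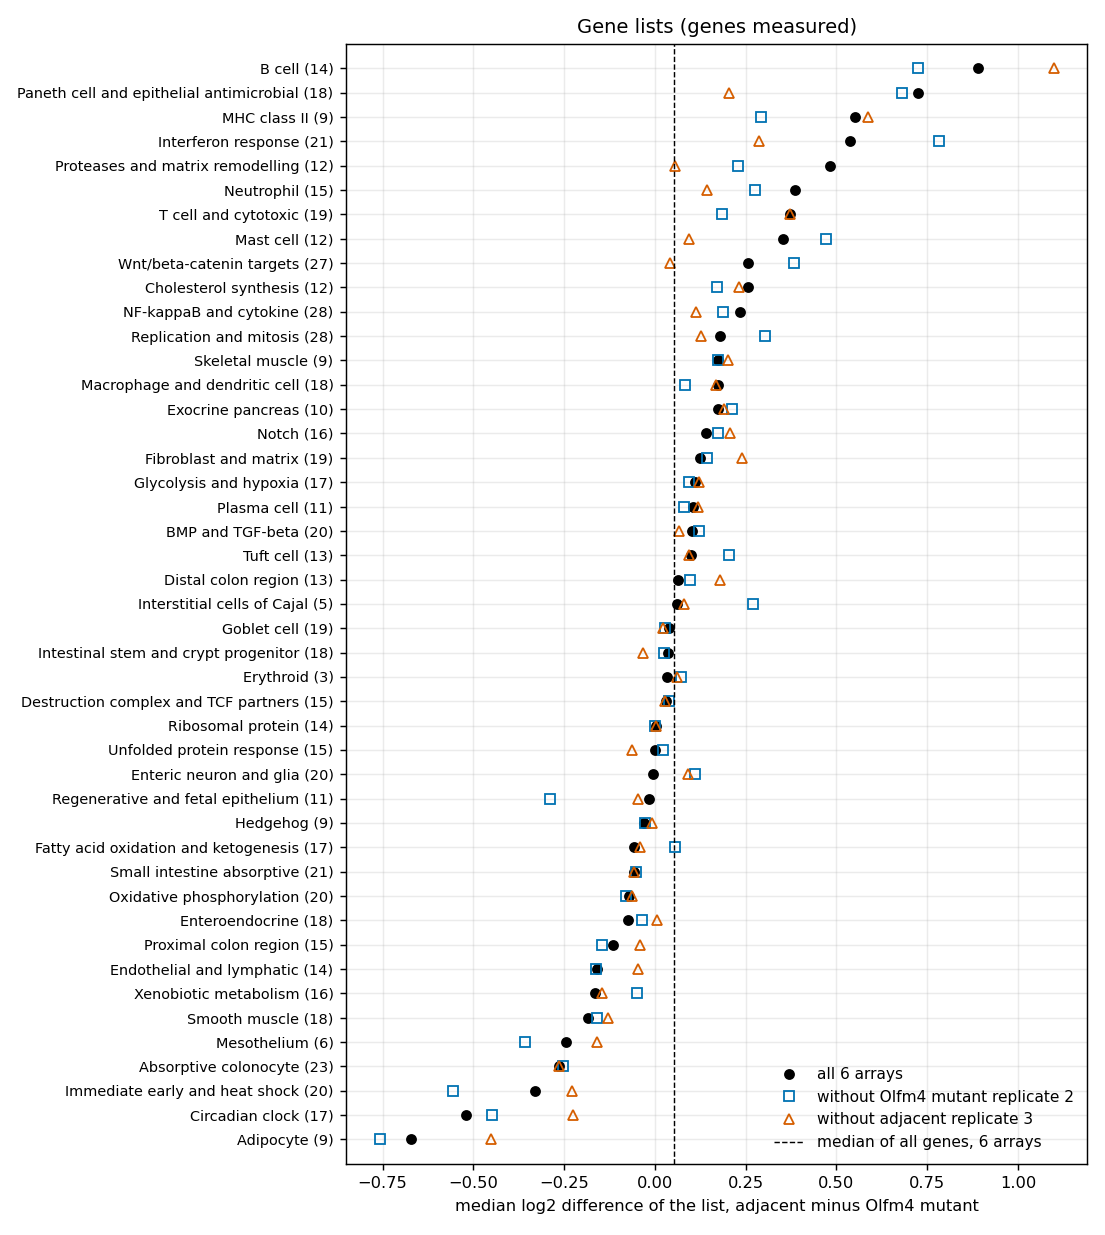
The median log2 difference (adjacent minus Olfm4 mutant) is plotted for the 45 gene lists, with the number of genes measured, for all 6 arrays and without Olfm4 mutant replicate 2 or adjacent replicate 3, and the dashed line is the median of all genes. B cell genes lie highest (0.89) and adipocyte genes lowest (-0.67), and the antimicrobial, protease and Wnt target lists move towards the dashed line without adjacent replicate 3.

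Clock genes had a median of -0.52 over 17, with 5 lower and 2 higher without overlap (11.2% and 13.9% of all genes) and 0 called. The median was -0.23 without adjacent replicate 3. Per1, a repressor of the clock, read 8.63, 8.43 and 8.92 against 8.01, 7.76 and 7.08 (-1.04, SE 0.23, adjusted p = 0.072), and passed without Olfm4 mutant replicate 2 (adjusted p = 0.0307). The clock output gene Dbp stood at -0.97 (adjusted p = 0.29) and the repressor Nr1d1 at -0.87 (0.23). The labels used here give no time of day of the dissections. Immediate early and heat shock genes had a median of -0.33 over 20, with 4 lower and 0 higher. It was -0.56 without Olfm4 mutant replicate 2 and 0.11 with the spike-in covariate. Egr2, an early growth response factor, spread from 9.19 to 12.20 within the Olfm4 mutant arrays.

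Metabolic genes showed small differences in each direction. Of 12 cholesterol synthesis genes 6 were higher and 0 lower without overlap (13.9% and 11.2% of all genes, as for the lists that follow), with a median of 0.26 that became 0.17 without Olfm4 mutant replicate 2. Lss, lanosterol synthase, read 9.99, 10.42 and 10.12 against 10.85, 11.37 and 11.42 (1.04, SE 0.29, adjusted p = 0.11). Of 17 glycolysis and hypoxia genes 8 were higher and 1 lower with a median of 0.11, and Pdk1, a kinase that shuts pyruvate out of mitochondria, stood at 0.70 (adjusted p = 0.13). Of 20 oxidative phosphorylation genes 8 were lower and 2 higher with a median of -0.07, and the subunit Ndufa4 stood at -0.53 (adjusted p = 0.094) and passed without Olfm4 mutant replicate 2 (-0.69, adjusted p = 0.0116). Hadha, of mitochondrial fatty acid oxidation, read 10.41, 10.28 and 10.72 against 9.25, 9.99 and 9.60 (-0.86, adjusted p = 0.072). Ribosomal protein genes had a median of 0.00, with probe sets of Rps9 at 1.37 and Rps14 at -1.11 (adjusted p = 0.28 and 0.060).

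Whether the Apc mutation went with a different change in colon lacking Olfm4 than in colon with it was asked with an interaction, adjacent minus Olfm4 mutant less APC mutant minus wild type, a contrast in which no array is used in both differences. By limma 0 genes were called (0%), with 1901 at an unadjusted p under 0.05, and for APC mutant minus wild type alone 0 were called (0%) with 1324 at an unadjusted p under 0.05. The adjacent tissue lies next to a tumour and the APC mutant colon is not labelled so, so the interaction is of both. Across genes, which are not independent replicates, the 2 differences correlated weakly (Pearson r = 0.138, Spearman rho = 0.114). Of the 2960 genes with an unadjusted p under 0.05 here 59.9% had the same sign in APC mutant over wild type, against 52.2% of all genes. The mean labelling measure was also higher on the Apc mutant side of both differences. It was 2.23 in APC mutant and 2.05 in wild type arrays, and 4.12 in adjacent and 2.70 in Olfm4 mutant arrays. The part of labelling in that share was not tested. The called genes gave interactions of 2.97 for Hamp2, 1.67 for Rinl, 1.33 for Lair1, 1.29 for Notch4 and -1.12 for Sdc4, with adjusted p-values of 0.23 to 0.32. In APC mutant over wild type colon Lair1 stood at 0.79 and Rinl at 0.19. Without Olfm4 mutant replicate 2 the interaction called 52 genes.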

How the data were processed

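Colon RNA (Trizol) was labelled as biotinylated cRNA for the arrays, per the labels. The authors deposited RMA values on the log2 scale, and RMA and Partek 6.5 are named per the submitters' processing notes. Values span 2.56 to 14.96 and the medians of arrays 6.35 to 6.47. Of 45101 probe sets 34945 carry 1 gene symbol in the platform annotation, and the brightest on average was kept for each of 18193 genes, with no filter on dim genes. The genome build is not given in the sources used here.

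All 15 arrays entered a limma 3.58.1 fit (R 4.3.3) of 5 group means with moderated variances, adjusted by Benjamini-Hochberg over all genes. The fit was tested on simulated data with independent noise for each array, which leaves out the shared animal and the labelling differences. Standard errors are of log2 differences, and the number of arrays limits their precision. The comparison and the 45 lists (771 entries, 704 measured, some shared between lists) were chosen with earlier results of these data known. Named genes are Olfm4, Apc, called genes, colon markers, the members of largest difference in lists and 17 fixed genes. The 50 tumour genes and any others were chosen after values were seen. Promoters are from RefSeq, build GRCm38.p6. Alternatives were other probe set choices, a brightness filter, cyclic loess, other priors and weights, a labelling covariate, animal terms and left-out arrays.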

Additional observations from a re-analysis of the deposited data

How the results depend on the processing

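With all arrays 8 genes were called, 7 higher and 1 lower. Calls (higher, lower) were 432 (115, 317) with the most variable probe set per gene, 135 (44, 91) among genes above the median mean, 81 (30, 51) with a trend and robust prior and 3308 (1710, 1598) with array weights. They were 1 (1, 0) with only the 6 arrays compared, 3 (3, 0) with animal as a random block, and 0 (0, 0) with the spike-in covariate or with animal averages and no Olfm4 mutant replicate 3. Lower genes numbered 4 without probe sets that can match several transcripts and 2 with cyclic loess. With each array left out in turn calls ran from 0 to 774, higher genes from 0 to 300 and lower genes from 0 to 474, and the highest counts were without Olfm4 mutant replicate 2. The interaction called 0 genes, and 1, 6, 6, 1, 1 and 22 with the mean of probe sets, the most variable probe set, no probe sets of several transcripts, genes above the median, cyclic loess and array weights. With each array left out it called 0 to 52. Over single genes and lists, 2406 alternative values kept direction and side of the threshold, 172 moved, 88 newly passed and 68 no longer passed. Ctnnb1 turned to -1.31 (adjusted p = 0.0347) with its most variable probe set. Except where the setting removes arrays or genes, the cause was not tested. No paired analysis was possible because the groups compared share no animal and replicate numbers follow only the order of the accessions. The number of arrays, and for Olfm4 and Pate14 a signal near the floor, limit what these values can show.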
